A study of Homo sapiens with 23 samples.

Results

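Expression of 10 heat shock genes was examined among the 60564 genes listed for each of 23 mRNA-seq libraries. The 10 genes were taken by symbol and comprised HSPA1A, HSPA1B, HSPA8, HSPH1, DNAJB1 and BAG3 of the HSP70 system, HSP90AA1, the small heat shock protein HSPB1, and the mitochondrial pair HSPD1 and HSPE1. The libraries came from 2 established human cell lines, Caco-2, a colorectal adenocarcinoma line used as a gut model, and HepG2, a hepatocellular carcinoma line used as a liver model. Both lines were grown in the iGLC platform, a microfluidic gut-liver chip in which separate chambers are linked by medium circulation. Each line was mono-cultured or co-cultured with the other line. Cells received 1 mM FFAs, a mixture of palmitic acid and oleic acid, for 1 day, or no FFAs (control). The 8 groups were therefore mono-cultured control, mono-cultured FFAs-treated, co-cultured control and co-cultured FFAs-treated cells of each line. There were 2 libraries of co-cultured control Caco-2 cells and 3 of every other group. In every group the cells had been starved of serum before treatment and were detached with trypsin and EDTA before lysis. Both lines are tumour-derived and stand in for normal gut and liver cells only as a model. The methods speak of biological replicates and repeated independent experiments, but the labels do not tie a library to an experiment or a culture. The p-values below measure the spread between the libraries of a group. The labels' extraction text names myoblasts, whereas every title, description and cell line entry names Caco-2 or HepG2 cells.

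Heat shock proteins are chaperones that bind unfolded polypeptides, prevent their aggregation and help them refold. Heat shock factor 1 (HSF1) is released from chaperones when unfolded proteins accumulate, and it binds heat shock elements, which are arrays of inverted GAA repeats in the promoters of these genes. HSP70 proteins work in a cycle in which J-domain proteins such as DNAJB1 deliver the substrate and nucleotide exchange factors such as HSPH1 and BAG3 release it. HSPD1 and HSPE1 form the chaperonin and its lid in the mitochondrial matrix.

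Of 8 intestinal markers, 4 (CDH17, VIL1, CDX2 and PHGR1) had a median above 10 TPM in Caco-2 cells. The other 4 were low, with medians of 0.86 TPM for GPA33, 1.25 TPM for KRT20 and 5.05 TPM for LGALS4. CDX1 was listed at 0 in 7 of 11 Caco-2 libraries and reached only 0.18 TPM. The summed level of the 8 intestinal markers was 889 to 1273 TPM in Caco-2 libraries and 155 to 245 TPM in HepG2 libraries, where VIL1 made up nearly all of it. The summed level of 8 hepatocyte markers was 31319 to 49944 TPM in HepG2 libraries and 2233 to 4421 TPM in Caco-2 libraries, mono-cultured ones included. TPM, a length-corrected transcript abundance, gives a gene's share of the transcripts in a library, so levels of different genes can be compared. Values are bulk measurements, in which fewer cells of a type and less RNA per cell cannot be told apart.

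Some libraries stood apart from the others of their group for these genes. The mean deviation of the 10 genes from the group mean on the log2(TPM + 1) scale was +0.49 in co-cultured FFAs-treated HepG2 replicate 1, +0.35 in co-cultured FFAs-treated Caco-2 replicate 1 and +0.34 in mono-cultured FFAs-treated HepG2 replicate 1. In the other 20 libraries it lay between -0.32 and +0.19. Results for FFAs are therefore given with and without these 3 libraries, a choice made after the values had been seen. All 3 received FFAs and were picked for high values of these genes, so leaving them out lowers most FFAs estimates by construction. A fall of an estimate or a change of its sign without them is therefore no separate test of the FFAs effect.

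HSPA1A and HSPA1B encode the stress-inducible HSP70 and are near-identical neighbours on chromosome 6 (GRCh38, 31815543 to 31817946 and 31827738 to 31830254, plus strand). Of the 2301 stretches of 100 bases in the HSPA1A transcripts, 1666 (72.4%) also occur in HSPA1B, so reads of both genes may have been divided between them and their separate levels are uncertain. HSPA1A was 1.49 to 2.24 times as high as HSPA1B in the 23 libraries, and their summed level is used below. No HSPA1A stretch of that length occurs in HSPA8. Pseudogenes named after the 10 genes carried at most 13.8 TPM in a library, the sum of 26 HSPE1 pseudogenes, against at least 999 TPM for HSPE1.

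The 250 bases upstream of the RefSeq start sites of these genes (GRCh38.p14, 14 windows for 10 genes) were searched for the letters GAANNTTC and TTCNNGAA, which are 2 inverted units of a heat shock element and read alike on both strands. At least 1 match was found for 7 of the 10 genes. HSPH1 (chr13:31134973-31162388), HSPE1 (chr2:197500140-197503449) and BAG3 (chr10:119651380-119677819) had no match in these windows. Of all 34943 windows of this length, 11.6% held a match. This share and the next one count windows, whereas the 7 of 10 counts genes, some of which had more than 1 window. The longer forms with 3 units, TTCNNGAANNTTC or GAANNTTCNNGAA, contain the shorter ones and were found for HSPA8, HSP90AA1 and HSPD1, against 0.441% of all windows. The stretches around the matches are shown as a description, and whether the matches bear on the levels of these genes was not tested. HSPA8 held 2 matches of the longer form, and only the stretch nearer to the start site is shown. Each stretch is written along the gene's strand with the matching letters in capitals.

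HSPA1A (chr6:31815425-31815456, plus strand): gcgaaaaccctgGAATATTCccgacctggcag
HSPA1B (chr6:31827621-31827652, plus strand): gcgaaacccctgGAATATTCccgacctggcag
HSPA8 (chr11:123062170-123062199, minus strand): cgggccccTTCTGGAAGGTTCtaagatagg
HSP90AA1 (chr14:102087093-102087144, minus strand): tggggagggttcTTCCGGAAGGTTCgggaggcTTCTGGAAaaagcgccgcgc
HSPB1 (chr7:76302479-76302510, plus strand): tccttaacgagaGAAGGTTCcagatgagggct
HSPD1 (chr2:197500061-197500090, minus strand): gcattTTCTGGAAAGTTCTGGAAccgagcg
DNAJB1 (chr19:14518425-14518486, minus strand): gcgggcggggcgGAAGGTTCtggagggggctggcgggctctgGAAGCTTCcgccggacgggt

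HSPA1A and HSPA1B carried the same letters at nearly the same distance from their start sites, and the 250 bases upstream of the 2 genes were 93.6% identical. The HSPA8, HSP90AA1 and HSPD1 stretches held the longer form. HSPD1 and HSPE1 are neighbours on chromosome 2 and are transcribed away from each other. HSPD1 has 2 RefSeq start sites, 539 and 105 bases from that of HSPE1. The HSPD1 stretch lies upstream of the farther site and downstream of the nearer one, and outside the window searched for HSPE1. That window ended at the RefSeq start site of HSPE1 (chr2:197500379), which lies inside the gene span printed above. The HSPD1 stretch lies just before that span, so the absence of a match for HSPE1 depends on the start site used.

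Together, the 10 genes made up 0.340% to 0.547% of the TPM of a Caco-2 library and 0.374% to 0.654% of that of a HepG2 library. The highest levels belonged to HSPE1, HSPD1 and HSPA8, the constitutive cytosolic HSP70. BAG3 had the lowest level, at most 50.3 TPM in any library. The 10 genes passed the filter on low values in every comparison.

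**Figure D1:**
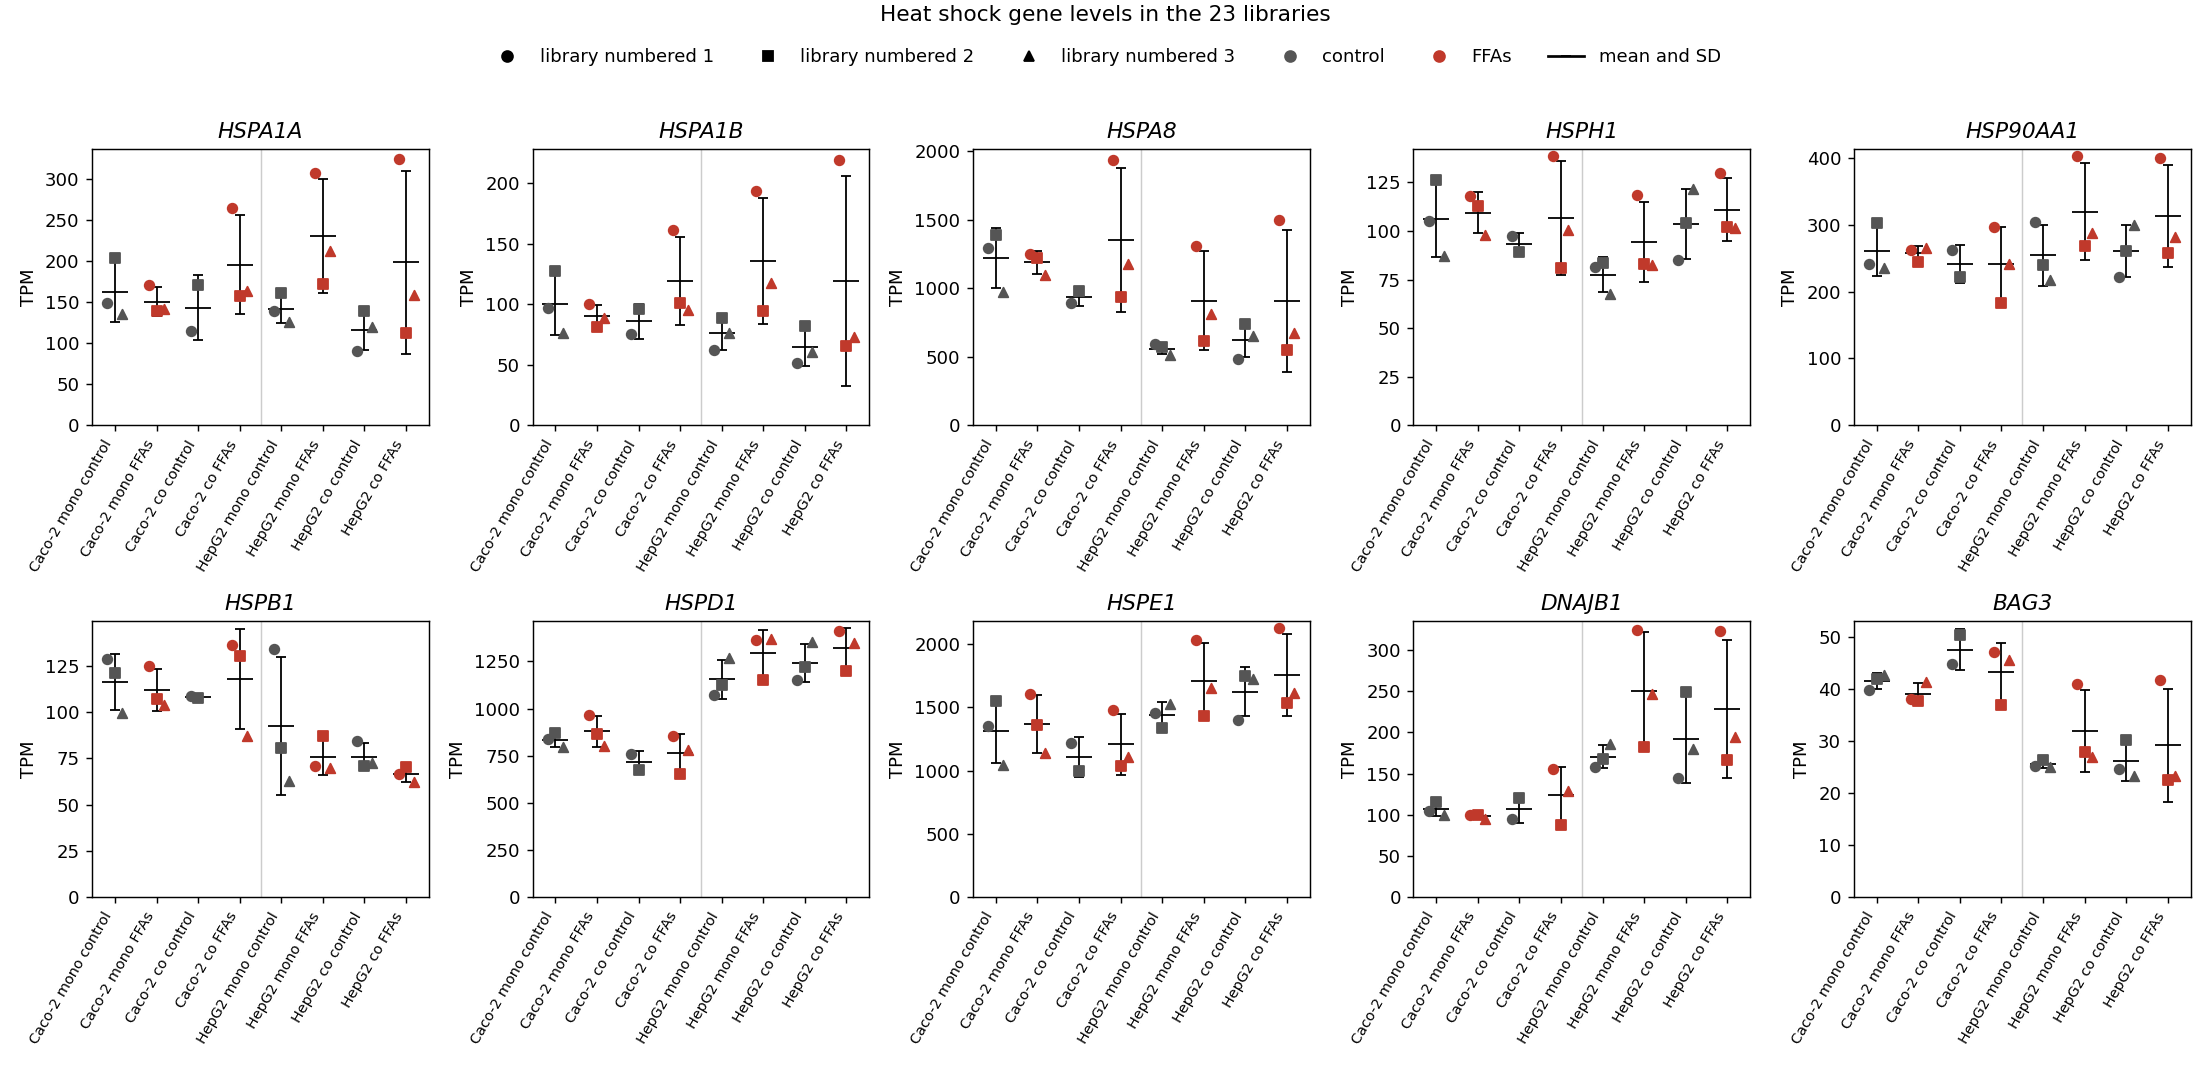
TPM of each of the 10 genes (vertical axis, from 0) in the 8 groups (horizontal axis, Caco-2 to the left of the grey line and HepG2 to the right). Symbols are libraries, shaped by replicate number and coloured by treatment, with the group mean and SD. HSPD1 was 651 to 965 TPM in Caco-2 cells and 1072 to 1409 TPM in HepG2 cells. For HSPA1A, HSPA1B, HSPA8 and DNAJB1 the red circles of 3 groups stood above the other libraries of their own group. These groups were co-cultured FFAs-treated Caco-2 cells and both groups of FFAs-treated HepG2 cells.

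The lines were compared as the mean of the 4 conditions of each line. Averaged in this way, 6 of the 10 genes differed between Caco-2 and HepG2 cells (limma, Benjamini-Hochberg adjusted p under 0.05), against 79.0% of the 16495 genes tested. HSPA8, BAG3 and HSPB1 were higher in Caco-2 cells, as were 49.8% of all genes. DNAJB1, HSPD1 and HSPE1 were lower in Caco-2 cells, as were 29.2% of all genes. The median log2 fold change was 0.05 for the 10 genes and 0.24 for all genes tested, so a gene without a difference on this scale lay below the median gene. With quantile normalization 50.0% of the called genes were higher in Caco-2 cells, with median-of-ratios scaling 52.5%, and with the TPM as deposited 63.1%.

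Among the mitochondrial chaperones, HSPD1 (HSP60, the chaperonin) ranged from 651 TPM through a median of 803 TPM to 965 TPM in the 11 Caco-2 libraries. It ranged from 1072 TPM through 1244 TPM to 1409 TPM in the 12 HepG2 libraries. Every Caco-2 library was below every HepG2 library, which held for 14.1% of all genes in this direction and for none of the other 9 heat shock genes in either direction. The level was 1.57-fold higher in HepG2 cells (log2 fold change -0.65, SE 0.06, adjusted p = 1.4e-09, limma). HSPE1 (HSP10, the lid) ranged from 999 to 1606 TPM with a median of 1221 TPM in Caco-2 cells and from 1338 to 2128 TPM with a median of 1573 TPM in HepG2 cells. Its difference was 1.31-fold (log2 fold change -0.39, SE 0.09, adjusted p = 0.00065, limma), and the ranges overlapped. HSPE1 was 1.32 to 1.79 times as high as HSPD1 in Caco-2 libraries and 1.19 to 1.51 times as high in HepG2 libraries.

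In the HSP70 system, DNAJB1, the J-domain partner induced together with HSP70, showed the largest difference of the 10 genes between the lines. It ranged from 87.0 to 155 TPM with a median of 100.1 TPM in Caco-2 cells and from 145 to 324 TPM with a median of 184 TPM in HepG2 cells. The level was 1.88-fold higher in HepG2 cells (log2 fold change -0.91, SE 0.13, adjusted p = 1.8e-06, limma). HSPA8 differed the other way, with a median of 1175 TPM (890 to 1938 TPM) in Caco-2 cells and 631 TPM (485 to 1500 TPM) in HepG2 cells. Its level was 1.63-fold higher in Caco-2 cells (log2 fold change 0.70, SE 0.16, adjusted p = 0.0006, limma). BAG3, the exchange factor that links HSP70 to selective autophagy, had a median of 42.0 TPM in Caco-2 cells and 25.8 TPM in HepG2 cells (log2 fold change 0.61, SE 0.10, adjusted p = 9.6e-06, limma). HSPB1 (HSP27), which holds unfolded proteins without ATP, had a median of 109 TPM in Caco-2 cells and 70.8 TPM in HepG2 cells (log2 fold change 0.56, SE 0.11, adjusted p = 6.9e-05, limma). These 6 genes kept their direction and passed the threshold under quantile normalization and median-of-ratios scaling too.

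For the other 4 genes no difference between the lines passed the threshold. HSPA1A had a median of 158 TPM in Caco-2 cells and 149 TPM in HepG2 cells, with a 95% interval of the log2 fold change from -0.34 to 0.32. HSPA1B had an interval from -0.27 to 0.49, and HSPH1, the HSP110 exchange factor, one from -0.09 to 0.32. The signs for HSPA1B and HSPH1 turned negative under both other scalings. HSP90AA1, the inducible cytosolic HSP90, had a median of 245 TPM in Caco-2 cells and 276 TPM in HepG2 cells, with a log2 fold change of -0.18 (SE 0.10, adjusted p = 0.098, limma). It passed the threshold, as lower in Caco-2 cells, with quantile normalization (log2 fold change -0.30) and with median-of-ratios scaling (log2 fold change -0.42). Without co-cultured FFAs-treated Caco-2 replicate 1 it passed as well (log2 fold change -0.23). HSPA1B passed, as higher in Caco-2 cells, without the 3 libraries that stood apart (log2 fold change 0.26). These were picked for high values, and more of them were HepG2 than Caco-2 libraries.

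**Figure D2:**
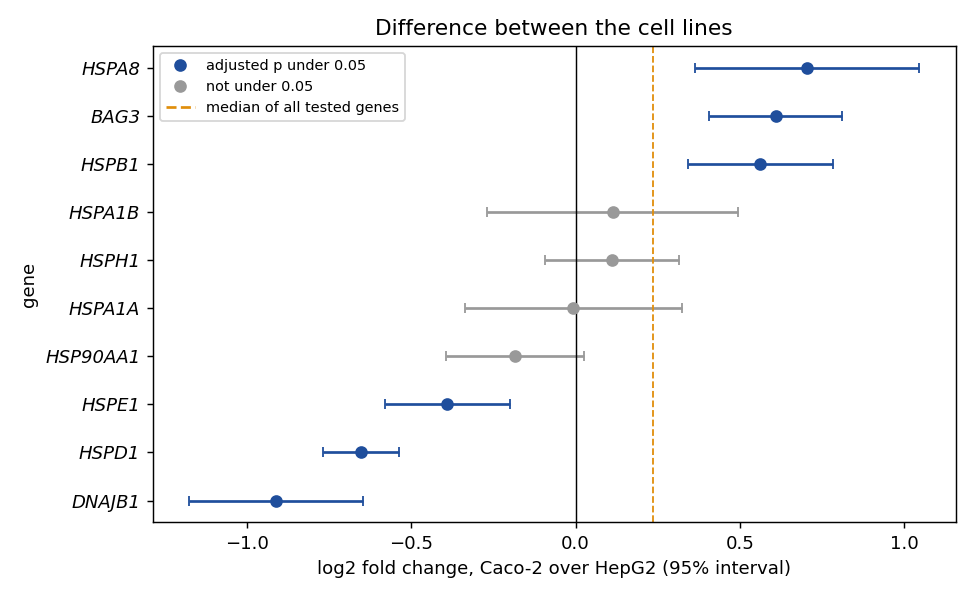
Log2 fold change of Caco-2 over HepG2 cells with its 95% interval (horizontal axis) for the 10 genes (vertical axis). Blue points passed an adjusted p of 0.05, and the dashed line is the median of all tested genes at 0.24. DNAJB1 (-0.91) and HSPA8 (0.70) stand at the ends.

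The FFAs comparison asks whether the fatty acid load changed these genes within a line. In HepG2 cells, 0 of the 10 genes passed the adjusted threshold for FFAs in mono-culture, in co-culture or averaged over both cultures, and 0% of the 14255 genes tested passed it in any of the 3 comparisons. Averaged over both cultures, HSPA1A and HSPA1B (adjusted p = 1.00 for both, limma) were the 2 of 10 with an unadjusted p under 0.05, a level reached by 3.49% of all genes. As reads may have been divided between these 2 genes, they are not separate results. Their summed level had a log2 fold change of 0.68 (SE 0.25, unadjusted p = 0.019, limma) and did not pass the adjusted threshold. Within mono-culture and within co-culture no gene of the 10 had an unadjusted p under 0.05, against 319 and 263 of the 14255 genes tested. The estimates were above 0 for 9 of the 10 genes, with a median log2 fold change of 0.24 against 0.01 for all genes. HSPB1 was the exception (-0.20, SE 0.15). Without the 3 libraries that stood apart, 8 of 10 estimates were above 0 and the median was 0.09.

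The summed level of HSPA1A and HSPA1B in mono-cultured HepG2 cells was 202, 250 and 203 TPM in the control libraries and 501, 266 and 330 TPM in the FFAs-treated libraries. In co-cultured HepG2 cells it was 142, 221 and 181 TPM in the controls and 544, 178 and 232 TPM with FFAs. All 3 FFAs-treated libraries lay above all 3 controls in mono-culture but not in co-culture, where replicate 2 with FFAs was below replicates 2 and 3 of the control. The log2 fold change of the summed level was 0.70 (SE 0.35, adjusted p = 1.00, limma) in mono-culture and 0.66 (SE 0.35, adjusted p = 1.00) in co-culture. Without the libraries that stood apart, the co-culture estimates were 0.22 (SE 0.21) for HSPA1A and 0.12 (SE 0.21) for HSPA1B, and those in mono-culture 0.43 (SE 0.21) and 0.49 (SE 0.21).

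HSPA8 was 594, 572 and 511 TPM in mono-cultured control HepG2 cells and 1307, 612 and 808 TPM with FFAs. In co-culture it was 485, 738 and 651 TPM in the controls and 1500, 547 and 672 TPM with FFAs. DNAJB1 was 158, 168 and 186 TPM in mono-cultured controls and 324, 182 and 247 TPM with FFAs. In co-culture DNAJB1 was 145, 250 and 180 TPM in the controls and 324, 166 and 195 TPM with FFAs. For both genes the highest value of each FFAs group was that of replicate 1, and the co-culture groups overlapped. The log2 fold change of HSPA8 was 0.63 (SE 0.34) in mono-culture and 0.41 (SE 0.34) in co-culture, and that of DNAJB1 was 0.52 (SE 0.27) and 0.23 (SE 0.27).

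In mono-cultured HepG2 cells 4 of the 10 genes (HSPA1A, HSPA1B, HSPA8 and BAG3) were higher in every FFAs-treated library than in every control library, as were 3.10% of all genes. HSPA1A and HSPA1B, between which reads may have been divided, are not separate results in this count. For BAG3 the margin was small, with 41.0, 27.8 and 26.9 TPM with FFAs against 25.2, 26.4 and 25.0 TPM in the controls. In co-cultured HepG2 cells HSPB1 was lower in every FFAs-treated library, at 66.7, 70.4 and 61.9 TPM against 84.4, 70.7 and 72.7 TPM, as were 2.40% of all genes in that comparison. The margin between the nearest libraries was again small.

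Without the 3 libraries that stood apart, the averaged log2 fold change in HepG2 cells was 0.32 (SE 0.15) for HSPA1A, 0.30 (SE 0.15) for HSPA1B, 0.16 (SE 0.13) for HSPA8 and 0.13 (SE 0.15) for DNAJB1. The values with all libraries were 0.65 (SE 0.23), 0.72 (SE 0.28), 0.52 (SE 0.24) and 0.37 (SE 0.19). In co-culture 9 of 10 estimates were above 0 with all libraries and 4 of 10 without these. Those that turned negative were BAG3 (0.11 to -0.17), DNAJB1 (0.23 to -0.05), HSPE1 (0.10 to -0.04), HSPA8 (0.41 to -0.02) and HSPH1 (0.10 to -0.01). No gene of the 10 passed the threshold with or without them.

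In Caco-2 cells 0 of the 10 genes passed the threshold for FFAs, and the smallest unadjusted p was 0.083, for HSPA8 in co-culture. Of all 15081 genes tested, 0% passed in mono-culture, 0.0199% in co-culture and 0% averaged over both cultures. HSPA8 in co-cultured Caco-2 cells was 890 and 977 TPM in the controls and 1938, 936 and 1175 TPM with FFAs, with a log2 fold change of 0.46 (SE 0.24). Summed HSPA1A and HSPA1B was 191 and 268 TPM in the controls and 426, 258 and 259 TPM with FFAs, with a log2 fold change of 0.44 (SE 0.24). In both cases replicate 1 with FFAs was the highest and the groups overlapped. Without that library the log2 fold changes in co-culture were 0.17 (SE 0.17) for HSPA8, 0.19 (SE 0.21) for HSPA1A and 0.20 (SE 0.21) for HSPA1B. In mono-culture the groups lay close together, with summed HSPA1A and HSPA1B at 245, 331 and 212 TPM in the controls and 271, 220 and 230 TPM with FFAs. DNAJB1 was lower with FFAs in every mono-culture library, at 99.2, 100.01 and 94.5 TPM against 105, 115 and 100.1 TPM, as were 2.05% of all genes. Its log2 fold change was -0.12 (SE 0.17).

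**Figure D3:**
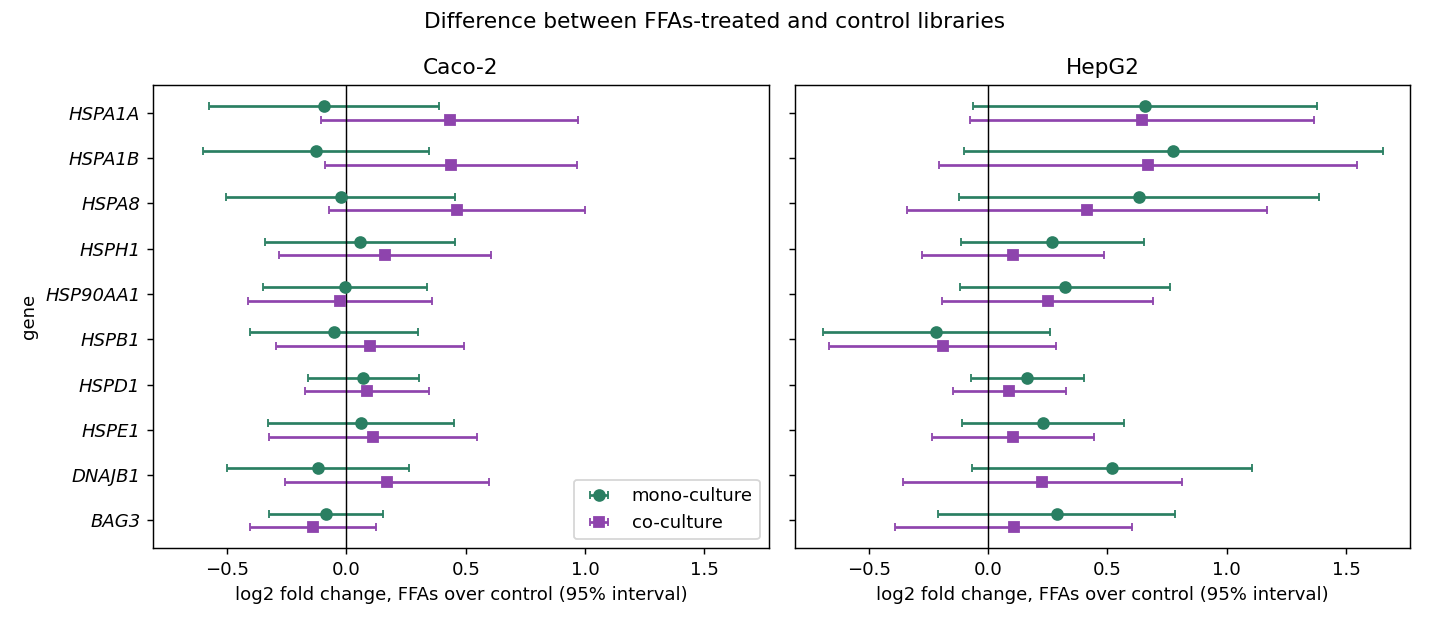
Log2 fold change of FFAs-treated over control libraries with its 95% interval (horizontal axis) for the 10 genes (vertical axis) in Caco-2 cells (left) and HepG2 cells (right), in mono-culture (green circles) and co-culture (purple squares). The intervals of all 40 comparisons include 0, and the widest are those of HSPA1B, HSPA8 and HSPA1A in HepG2 cells.

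The FFAs effect itself did not pass the threshold for a difference between cultures or between lines. For the difference between cultures 0 of 10 genes and 0% of all genes passed in Caco-2 cells, and likewise 0 of 10 and 0% in HepG2 cells. For the difference between lines 0 of 10 genes passed, against 0.0182% of all genes. In these 3 tests 0 of the 10 genes had an unadjusted p under 0.05. Of all genes, 292 of 15081 had one for cultures in Caco-2 cells and 166 of 14255 in HepG2 cells. For the difference between lines it was 494 of 16495. The effect on HSPA1A was 0.48 lower on the log2 scale in Caco-2 than in HepG2 cells, with a 95% interval from -1.14 to 0.18. For HSPA1B the interval of this difference was -1.33 to 0.19.

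Co-culture with the other line was compared with mono-culture at matched treatment. In Caco-2 cells 0 of 10 genes passed the threshold without FFAs, with FFAs or averaged over both treatments, against 0.0199%, 0% and 0% of all genes. Averaged over both treatments, HSPD1 was the 1 gene of the 10 with an unadjusted p under 0.05 (adjusted p = 0.40, limma), a level reached by 10.5% of all genes. HSPD1 was 841, 868 and 795 TPM in mono-cultured control Caco-2 cells and 756 and 673 TPM in co-cultured controls. With FFAs it was 965, 868 and 803 TPM in mono-culture and 853, 651 and 783 TPM in co-culture. The control groups did not overlap, which was so in this direction for 7.99% of all genes, and the FFAs groups did. The averaged log2 fold change was -0.22 (SE 0.08), and that of its partner HSPE1 was -0.21 (SE 0.13). BAG3 in controls was 44.8 and 50.3 TPM in co-culture and 39.8, 42.0 and 42.7 TPM in mono-culture, higher in every co-culture library as were 15.1% of all genes, with an averaged log2 fold change of 0.16 (SE 0.08, adjusted p = 0.51, limma).

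In HepG2 cells 0 of 10 genes passed the threshold for co-culture without FFAs, with FFAs or averaged over both treatments, against 0%, 0% and 0.0561% of all genes. HSPH1 was the 1 gene with an unadjusted p under 0.05 on average (adjusted p = 0.31, limma), a level reached by 12.5% of all genes. HSPH1 was 81.5, 83.7 and 67.4 TPM in mono-cultured controls and 85.3, 104 and 121 TPM in co-cultured controls. Every co-culture library was higher, as were 7.25% of all genes. With FFAs HSPH1 was 118, 82.7 and 82.6 TPM in mono-culture and 130, 102 and 101 TPM in co-culture, and these groups overlapped. The averaged log2 fold change was 0.32 (SE 0.12).

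The culture effect did not pass the threshold for a difference between the lines in any of the 10 genes, against 0.533% of all genes. HSPD1 (log2 difference -0.28, SE 0.11, adjusted p = 0.23, limma) and HSPH1 (-0.44, SE 0.20, adjusted p = 0.30) were the 2 of 10 with an unadjusted p under 0.05, a level reached by 14.6% of all genes. By the criteria of the study, an unadjusted one-way analysis of variance p under 0.05 among the 4 groups of a line and at least a 1.2-fold difference, 0 of the 10 genes were called in either line. These criteria called 3.08% of the 31100 genes tested in Caco-2 cells and 3.56% of the 29942 in HepG2 cells. Each library of a line was also left out in turn. In Caco-2 cells 2 genes, BAG3 and DNAJB1, met them without co-cultured FFAs-treated replicate 2, as did 849 of all 30719 genes tested. In HepG2 cells HSPA1A and HSPA1B met them without co-cultured FFAs-treated replicate 1, as did 1162 of all 29680 genes. HSPH1 met them without mono-cultured FFAs-treated replicate 1, as did 1097 of all 29717 genes. No other fit with a single library left out called any of the 10 genes.

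Ordered by group mean, few neighbouring groups were separate in their ranges. A break concerns neighbouring groups only, and libraries of other groups can lie across it. How often such breaks occur among all genes was not determined, so the breaks are given as a description of these genes only. For 6 of the 10 genes (HSPA1A, HSPA1B, HSP90AA1, HSPB1, HSPE1 and BAG3) every group overlapped the next one in the order. The order of HSPD1 had 1 break, between mono-cultured control HepG2 cells (1155 ± 102 TPM, SD, n = 3) and mono-cultured FFAs-treated Caco-2 cells (879 ± 81.9 TPM, SD, n = 3). DNAJB1 had a break from mono-cultured control HepG2 cells (171 ± 14.2 TPM, SD, n = 3) to co-cultured FFAs-treated Caco-2 cells (124 ± 34.3 TPM, SD, n = 3). The lines themselves overlapped for DNAJB1, as co-cultured control HepG2 replicate 1 (145 TPM) was below co-cultured FFAs-treated Caco-2 replicate 1 (155 TPM). Its second break lay between control (107 ± 7.74 TPM, SD, n = 3) and FFAs-treated (97.9 ± 2.98 TPM, SD, n = 3) mono-cultured Caco-2 cells. These 2 groups were separate in this direction for 2.05% of all genes. HSPA8 had 1 break, between mono-cultured FFAs-treated (1188 ± 83.9 TPM, SD, n = 3) and co-cultured control (934 ± 61.2 TPM, SD, n = 2) Caco-2 cells. HSPH1 had 1, above mono-cultured control HepG2 cells (77.5 ± 8.83 TPM, SD, n = 3), the lowest group. Co-cultured FFAs-treated Caco-2 replicate 2 (81.0 TPM) lay within the range of that group.

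The libraries that stood apart did so for the cytosolic HSP70 genes most of all. Against the mean of the other libraries of its group, co-cultured FFAs-treated HepG2 replicate 1 was 3.16 times as high for HSPA1B, 2.39 times for HSPA1A, 2.46 times for HSPA8, 1.82 times for BAG3 and 1.79 times for DNAJB1. The same ratio was 1.35 for HSPE1, 1.11 for HSPD1 and 1.01 for HSPB1. In mono-cultured FFAs-treated HepG2 replicate 1 the ratio was 1.84 for HSPA8 and 0.90 for HSPB1. In co-cultured FFAs-treated Caco-2 replicate 1 it was 1.84 for HSPA8, 1.65 for HSPA1A and 1.25 for HSPB1. Mono-cultured FFAs-treated Caco-2 replicate 1 was not of this kind, with ratios from 0.96 for BAG3 to 1.28 for HSPE1.

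A list of 10 immediate-early genes (FOS, FOSB, JUN, JUNB, EGR1, ATF3, IER2, IER3, DUSP1 and MYC), which respond to serum and handling within minutes, had a lower summed level in the libraries that stood apart than in the others of their groups. Its summed level in replicate 1 was 0.37 times the mean of the other libraries of the group for FFAs-treated Caco-2 cells in co-culture. The ratio was 0.52 for FFAs-treated HepG2 cells in co-culture and 0.47 in mono-culture. For mono-cultured FFAs-treated Caco-2 replicate 1 it was 1.67. In the 3 groups of the libraries that stood apart, taken in the same order, the ratio was 2.20, 1.82 and 1.94 for replicate 2. For replicate 3 it was 0.94, 0.92 and 0.93. Those replicate 2 libraries had the lowest mean deviations of the 10 heat shock genes, at -0.26, -0.32 and -0.25. Deviations cancel within a group, so a high replicate 1 lowers those of the others. Outside these groups the largest mean deviations were -0.20 and +0.16 in co-cultured control HepG2 replicates 1 and 2, with list ratios of 0.83 and 1.07. Mono-cultured control Caco-2 replicates 3 and 2 had -0.19 and +0.19, with list ratios of 1.03 and 0.99. The list ranged from 756 to 2530 TPM over Caco-2 libraries and from 325 to 894 TPM over HepG2 libraries. In HepG2 libraries MYC weighed most, with a median of 347 TPM against 572 TPM for the whole list. The summed markers of the cells' own line were 1.03, 0.85 and 0.84 times those of the other libraries of the group in the 3 libraries. The part of these differences in the heat shock gene levels was not tested.

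**Figure D4:**
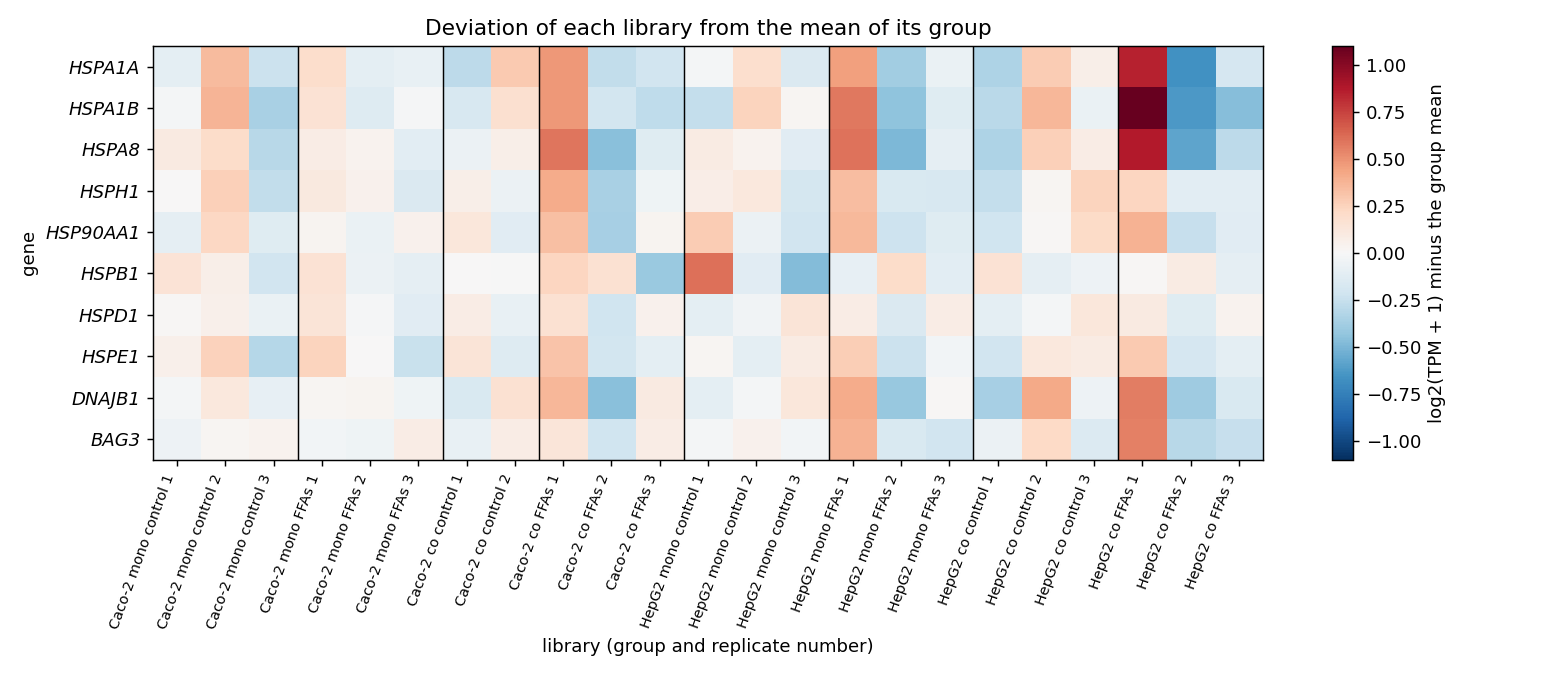
Deviation of log2(TPM + 1) from the group mean (colour, red above and blue below) for the 10 genes (rows) in the 23 libraries (columns, grouped by line, culture and treatment). Replicate 1 of co-cultured FFAs-treated Caco-2 cells and of both FFAs-treated HepG2 groups is red for nearly all genes other than HSPB1 in HepG2 cells.

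Across the 23 libraries, the deviations from the group mean of HSPA1A correlated with those of HSPA1B (Pearson's r 0.95) and HSPA8 (0.94), and those of HSPA8 with those of DNAJB1 (0.91). Reads may have been divided between HSPA1A and HSPA1B, so their r does not come from separate measurements. HSPD1 and HSPE1 had an r of 0.79. HSPB1 stood aside, with r between -0.31 and 0.19 to the other 9 genes. These correlations are descriptive. The points share libraries, and the 3 libraries that stood apart weigh on all of them. Among 7692 other genes that averaged 10 TPM or more in both lines, the 5 whose deviations followed the mean deviation of the 10 genes most closely were PHPT1 (r 0.86), MRPL18 (0.86), C20orf27 (0.85), SSBP1 (0.85) and DDX39A (0.84).

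The wider chaperone network was described by 7 lists of 65 genes that exclude the 10 genes. Between the lines, 28 of the 59 listed genes tested were higher and 19 lower in Caco-2 cells (limma, adjusted p under 0.05), with a median log2 fold change of 0.14 against 0.24 for all genes, of which 49.8% were higher and 29.2% lower. The balance of the lists turned round with quantile normalization (19 higher, 26 lower) and with median-of-ratios scaling (16 higher, 27 lower), so the counts per list below hold for the TPM as deposited. In the HSP70 list 8 of 13 genes were higher and 4 lower, led by the testis-enriched HSPA2 (log2 fold change 2.50, SE 0.09, median 6.56 TPM in Caco-2 cells and 0.36 TPM in HepG2 cells) and HSPA14 (1.70, SE 0.10). Of the J-domain list 3 of 7 were higher and 2 lower, with DNAJB4 at -1.71 (SE 0.12) and DNAJB5 at 0.87 (SE 0.15). Of the HSP90 list 3 of 10 were higher and 4 lower, or 2 higher and 6 lower under either other scaling, led by the co-chaperone CHORDC1 at 1.82 (SE 0.11) and FKBP5 at -0.73 (SE 0.08). Of the small heat shock proteins 4 of 9 passed the filter, and HSPB8, the partner of BAG3, was higher at 3.39 (SE 0.16, median 13.5 TPM against 0.58 TPM), whereas CRYAA was lower at -3.48 (SE 0.22, listed at a median of 0 TPM in Caco-2 cells). In the cytosolic chaperonin list 3 of 8 were higher and 3 lower, with CCT2 at 0.52 (SE 0.05) and CCT8 at 0.39 (SE 0.07), the latter not called with median-of-ratios scaling (0.16). Of the mitochondrial list 5 of 9 were higher and 2 lower, with the mitochondrial exchange factors GRPEL1 at -0.76 (SE 0.08) and GRPEL2 at 0.41 (SE 0.14). That balance turned to 1 higher and 4 lower with quantile normalization and to 0 higher and 4 lower with median-of-ratios scaling, and GRPEL2 was called under neither (0.13 and 0.19). Of the heat shock factor and proteotoxic stress list 5 of 8 were higher and 2 lower, led by the collagen chaperone SERPINH1 at 2.12 (SE 0.07).

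Within the lines 0 of the listed genes passed the threshold in any of the 14 comparisons, nor did any in the 2 tests of whether an effect differed between lines. An unadjusted p under 0.05 was reached by 0 to 7 of 58 listed genes in Caco-2 cells and by 0 to 19 of 56 in HepG2 cells, the highest counts being those for co-culture averaged over both treatments. In that comparison 10.5% of all genes reached it for Caco-2 and 12.5% for HepG2. The smallest unadjusted p for FFAs averaged over both cultures belonged to SQSTM1, an autophagy receptor, in HepG2 cells (log2 fold change -0.36, SE 0.10, adjusted p = 1.00, limma) and to HSPA12A in Caco-2 cells (0.31, SE 0.08, adjusted p = 0.99). For co-culture it belonged to LONP1, a mitochondrial protease, in HepG2 cells (0.31, SE 0.08, adjusted p = 0.18, limma) and to HSPA14 in Caco-2 cells (-0.29, SE 0.08, adjusted p = 0.31). For the difference of the culture effect between the lines it belonged to TRAP1, the mitochondrial HSP90 (-0.43, SE 0.12, adjusted p = 0.11, limma). For that difference 26 of the 59 listed genes had an unadjusted p under 0.05, against 14.6% of all genes. Among them were 7 of 8 in the cytosolic chaperonin list, 7 of 10 in the HSP90 list and 6 of 9 in the mitochondrial list. The list medians were -0.32, -0.30 and -0.32 on the log2 scale, against 0.05 for all genes. They stayed below 0 under quantile normalization (-0.28, -0.24 and -0.28) and median-of-ratios scaling (-0.36, -0.35 and -0.36).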

How the data were processed

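Gene expression was measured by mRNA-seq of 23 libraries. According to the methods and the labels, the authors removed reads of rRNA, tRNA and the mitochondrial genome with Bowtie2 2.1.0, mapped the rest to GRCh38 with STAR 2.7.1a and calculated TPM with RSEM 1.3.0. The deposited values are TPM, whose total is the same in every library, and no depth is known. The labels describe low serum during treatment and the methods describe none.

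Groups were taken from the labels. Values were analysed as log2(TPM + 1) with limma 3.58.1 (eBayes with a trend, R 4.3.3), which was also tested on simulated data. The 4 groups of a line entered one fit, or all 23 libraries for comparisons between lines. Genes averaging 1 TPM or more in any group were tested, with Benjamini-Hochberg adjustment over all of them at 0.05. Fold changes on this scale understate changes of low genes. One-way analysis of variance followed the criteria of the study. In each list the 2 genes with the largest change past the threshold were named or, where none passed, the 1 with the smallest p over all lists. For 1 gene named by this rule the result is not reported here. For HSPA14, listed under 2 identifiers, ENSG00000187522 was used. The 10 genes and the lists were chosen with earlier results of these data known. Alternatives were a pseudocount of 0.1, other filters and scalings, no trend, only the groups compared, a replicate block, summed HSPA1A and HSPA1B, and leaving out libraries.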

Additional observations from a re-analysis of the deposited data

How the results depend on the processing

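The count of heat shock genes past the threshold in limma stayed at 0 in all 14 comparisons within lines and in both tests between lines under every alternative run, and at 6 or 7 of 10 for the comparison of the lines. By one-way analysis of variance it ranged from 0 to 2 in Caco-2 cells and from 0 to 2 in HepG2 cells when single libraries were left out, and was 0 under the other alternatives. Over all genes that analysis called 957 genes in Caco-2 and 1066 in HepG2 cells, but 9 and 1 after Benjamini-Hochberg adjustment. For HSPA1A between the lines the log2 fold change was 0.0356 with HSPA1A and HSPA1B summed, and -0.0908 to 0.0986 with single libraries left out. It was 0.0956 without the 3 libraries that stood apart and 0.111 without all libraries numbered 1, 2 alternatives chosen after seeing the data. HSPA1B turned to -0.0991 and HSPH1 to -0.0971 with quantile normalization, and to -0.118 and -0.119 with median-of-ratios scaling. For FFAs in HepG2 cells averaged over both cultures, BAG3 turned to -0.0371 without the 3 libraries and to -0.0581 without all libraries numbered 1. In the latter HSPH1 was -0.00295, HSPB1 0.00613 and HSPE1 -0.0194. In co-cultured HepG2 cells HSPA8 was -0.0218 without the 3 libraries, -0.193 without all numbered 1 and -0.0218 to 0.705 with single libraries left out. DNAJB1 was -0.0536, -0.235 and -0.0536 to 0.435, and HSPA1B was -0.0258 without all libraries numbered 1. BAG3 was -0.172, HSPE1 -0.0414 and HSPH1 -0.0115 there without the 3 libraries. In co-cultured Caco-2 cells HSPA1A turned to -0.0908 without all libraries numbered 1. The cause was not tested. In a fit with a replicate block (the number in the labels), 6 of 10 heat shock genes differed between the lines and 0 passed within them. Over all genes the replicate block raised the calls for co-culture in HepG2 cells from 8 to 492 and in Caco-2 cells from 0 to 60, and for the difference of the culture effect between lines from 88 to 344. By analysis of variance with the block, 1374 genes were called in Caco-2 and 1661 in HepG2 cells. Every library correlated best with its own number in neither line (7 of 11 and 10 of 12). Same-numbered libraries correlated in their deviations from -0.09 to 0.31 in Caco-2 cells and from 0.03 to 0.60 in HepG2 cells. The r was over 0.1 in 7 of 15 Caco-2 pairs and 15 of 18 HepG2 pairs. Most HepG2 libraries thus resembled those of the same number, and Caco-2 libraries did so less. The deviations of the 2 co-cultured control Caco-2 libraries mirror each other by construction. Their r values, the lowest of -0.09 among them, are thus partly fixed by the group size. How many libraries would match their own number best without any pairing was not determined. The labels do not tie the numbers to experiments, so the main fits held no replicate block. The p-values of those fits ignore any such pairing. Depth cannot be read from TPM, and 3 libraries a group limit what could be detected.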
